A study of Rattus norvegicus with 10 samples.

Results

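In rat round spermatids, 7 genes stood among the 12 most abundant transcripts although they belong to none of the protamine, transition protein, chaperone or outer dense fibre classes: Oaz3, Smcp, Fam229b, Pebp1, Gsg1, Crisp2 and Cmtm2a. They were selected on measured values, from the genes outside these classes whose level averaged above 1500 FPKM over all 10 libraries. They are 7 of the 32545 genes measured. Further genes outside these classes lay above that level but below Cmtm2a, and are not members, as named below. FPKM divides the sequenced fragments of a gene by its length and by the size of the library, so that levels of different genes can be compared. Because the mean over both ages chose the genes, their abundance is a description, while the difference between ages was not used in the choice.

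The samples were wild-type (WT) Brown Norway rat germ cells, labelled as primary round spermatids, in a young group of 4 to 6 months (5 libraries) and an aged group of 18 to 20 months (5 libraries). The animals were kept under normal conditions with free access to food and water, and no treatment other than ageing is named. The cells came from STA-PUT sedimentation, which enriches a germ cell stage by how fast cells sink and does not yield a pure population. Whether a library holds 1 animal or a pool is not stated, so p-values measure the spread between libraries. The question was how ageing changes expression in these cells.

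Round spermatids are haploid cells that will soon stop transcribing, because their chromatin is repacked with protamines. Many mRNAs for the later sperm are therefore made early, held as silent particles and translated days afterwards. Transcripts of sperm structure can thus be far more abundant in these cells than the proteins they encode.

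The libraries held 14488222 to 18203223 fragments, recovered as whole numbers from the FPKM values. The 18 round spermatid markers examined, which include Prm1 and Tnp1, were all detected. Their summed level was 16737 to 26427 FPKM (young) and 16505 to 21670 FPKM (aged), highest in young libraries 5 and 1. Most of this sum was Prm1 and Tnp1, and Prm1 alone stood at 16200 and 14554 FPKM in those libraries. Acrv1, an acrosome protein, stood at 160 to 222 FPKM (young) and 199 to 242 FPKM (aged). Spaca1 stood at 174 to 245 FPKM (young) and 218 to 292 FPKM (aged). Markers of Leydig cells, macrophages, peritubular cells and Sertoli cells were low, and the median of each sum was higher in the aged group. The summed level of 8 Leydig cell markers was 5.13 to 8.28 FPKM in young and 10.8 to 120 FPKM in aged libraries. That of 14 macrophage markers was 26.8 to 62.4 and 48.2 to 419 FPKM, and that of 14 peritubular markers 67.9 to 107 and 111 to 333 FPKM. That of 13 Sertoli cell markers was 44.6 to 54.7 and 54.6 to 158 FPKM. All 4 sums were highest in aged library 2. The groups overlapped in the sums of 6 endothelial markers (13.8 to 15.9 and 15.1 to 19.2 FPKM) and of 8 lymphocyte markers (7.52 to 8.91 and 6.15 to 18.1 FPKM). They also overlapped in that of 3 erythroid markers (0.440 to 1.98 and 1.74 to 6.96 FPKM). One of the Leydig cell markers was at 0 in every library. The summed level of 14 spermatocyte markers was 430 to 549 FPKM in young and 396 to 487 FPKM in aged libraries, and that of 11 spermatogonial markers 80.2 to 99.9 and 77.2 to 98.9 FPKM. In such cell mixtures, fewer cells of a type and less RNA per cell cannot be told apart.

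Oaz3 led the 7 genes at 4121 ± 657 FPKM (SD, n = 10), rank 4 of all genes, after Prm1, Tnp2 and Tnp1 and level with Odf1 (4119 ± 695 FPKM). Smcp followed at 2882 ± 466 FPKM, Fam229b at 2516 ± 169, Pebp1 at 2344 ± 160, Gsg1 at 2171 ± 324, Crisp2 at 2122 ± 140 and Cmtm2a at 1884 ± 112 FPKM (rank 12). The first step of this order was larger than the SD of either gene: Oaz3 exceeded Smcp by 1239 FPKM, and in 10 of 10 libraries. Smcp exceeded Fam229b in 8 of 10 libraries, Fam229b exceeded Pebp1 in 9 and Pebp1 exceeded Gsg1 in 8, by 366, 172 and 173 FPKM on average. The first of these gaps was below the SD of Smcp but above that of Fam229b, the second was about the SD of both genes, and the third was below the SD of Gsg1. Gsg1 exceeded Crisp2 in only 4 of 10 libraries. Crisp2 exceeded Cmtm2a in 9 of 10 libraries, by 238 FPKM on average, again more than either SD. Summed, the 7 genes made up 3.30% ± 0.238 (SD, n = 10) of all FPKM and 1.74% ± 0.134 of all fragments, since they are short.

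The limit of 1500 FPKM does not by itself end the list at these 7 genes. Of the 18 genes above it, 11 are not members. Prm1, Tnp1, Tnp2, Odf1 and Hspb9, a small heat shock protein (2982 ± 393 FPKM), belong to the classes set aside. The remaining 6 lay below Cmtm2a: Ropn1l, a sperm tail protein (1719 FPKM), the ubiquitin gene LOC100360645 (1716 FPKM), Lrrc46 (1637 FPKM), Ybx2, a protein that binds stored spermatid mRNA (1636 FPKM), the testis fatty acid binding protein Fabp9 (1599 FPKM) and the poly(A) binding protein Pabpc1 (1594 FPKM). The first genes under the limit were Phf7 (1382 FPKM), Irgc (1373 FPKM) and Odf2 (1274 FPKM).

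**Figure D1:**
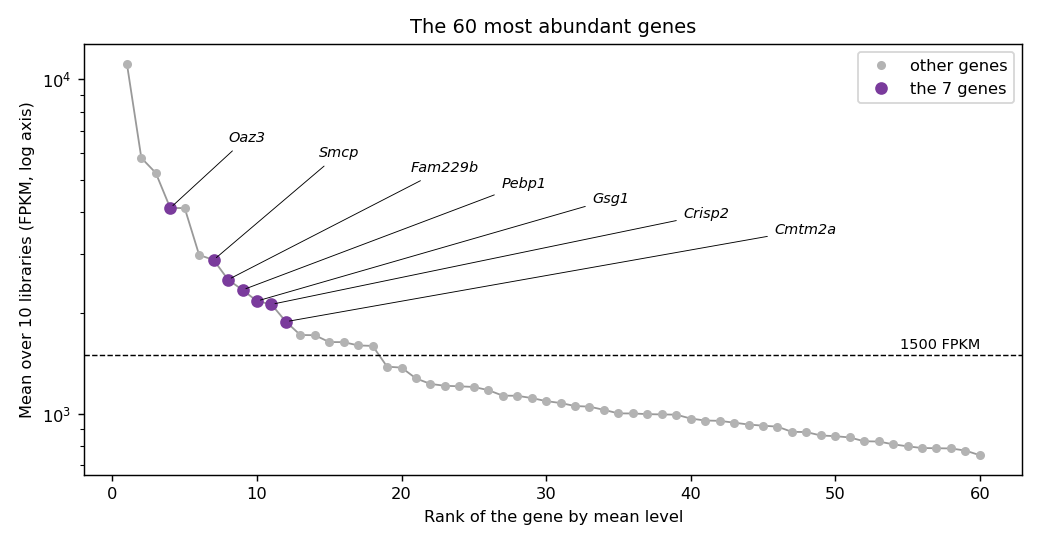
Mean level over 10 libraries (FPKM, log axis) of the 60 most abundant genes by rank, with the 7 genes in purple and the 1500 FPKM limit dashed. The 7 genes take ranks 4 and 7 to 12, and 6 further grey points lie between Cmtm2a and the limit.

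Sequences at the gene starts are given as a description of the genes. RefSeq promoter windows of the rat assembly GRCr8, 250 bases before to 50 after the annotated start, were matched for 6 of the 7 genes, all but Gsg1. The windows of Oaz3 (chr2:184765127-184765426, minus strand), Smcp (chr2:180861515-180861814, minus strand) and Fam229b (chr20:44106822-44107121, minus strand) follow, 5′ to 3′. Capitals mark TGACATCA on either strand in Oaz3 and Smcp, and CCAAT in Fam229b.
Oaz3: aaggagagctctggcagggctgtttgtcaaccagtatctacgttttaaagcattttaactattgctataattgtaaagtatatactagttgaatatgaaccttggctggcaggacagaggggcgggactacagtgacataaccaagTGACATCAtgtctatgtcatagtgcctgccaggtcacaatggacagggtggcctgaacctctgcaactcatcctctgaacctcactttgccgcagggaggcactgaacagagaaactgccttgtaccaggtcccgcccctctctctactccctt
Smcp: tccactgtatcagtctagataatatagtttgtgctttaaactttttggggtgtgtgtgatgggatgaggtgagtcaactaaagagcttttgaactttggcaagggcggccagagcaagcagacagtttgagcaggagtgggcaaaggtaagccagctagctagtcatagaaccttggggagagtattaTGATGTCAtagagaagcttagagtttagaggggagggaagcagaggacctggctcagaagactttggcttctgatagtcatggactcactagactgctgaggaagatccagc
Fam229b: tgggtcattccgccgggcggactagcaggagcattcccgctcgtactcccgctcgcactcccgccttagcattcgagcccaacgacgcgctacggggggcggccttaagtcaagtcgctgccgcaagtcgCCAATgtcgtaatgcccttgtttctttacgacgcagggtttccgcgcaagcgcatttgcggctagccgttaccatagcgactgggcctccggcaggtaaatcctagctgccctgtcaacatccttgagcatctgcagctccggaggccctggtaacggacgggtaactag

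The letters TGACATCA, which differ at 1 place from the cAMP response element TGACGTCA, begin 104 bases before the Oaz3 start on the plus orientation and 62 bases before the Smcp start on the opposite one (as TGATGTCA). They were searched after these windows had been read. On either strand they occur in 4.34% of the 33469 windows, and in none of the other 4 members matched. The element TGACGTCA itself is in 1.83% of windows, its 5-letter part TGACG, which overlaps it, in 21.2%, and TATAAA in 14.2%; none of the 6 members matched holds these letters in this window. CCAAT, in 37.5% of windows, begins 120 bases before the start of Fam229b and 76 before that of Pebp1 (chr12:44963440-44963739, plus strand). The windows differ in composition: Oaz3 has 48.3% G and C with 4 CpG pairs and Smcp 46.7% with 1, whereas Fam229b has 61.0% with 30 and Pebp1 60.3% with 25, against medians of 51.7% and 7 over all windows. Crisp2 has 46.0% with 8 CpG pairs and Cmtm2a 59.3% with 8. A match to such letters is a description of the sequence and not a measured binding site. Over the 10 libraries the Pearson r of log2 levels was 0.94 for Oaz3 with Smcp, which share TGACATCA. It was 0.51 for Fam229b with Pebp1, which share CCAAT, and 0.85 for Fam229b with Cmtm2a, which share none of the letters searched. Gsg1 has no window here, and a link between letters and levels was not tested.

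None of the 7 genes passed the test between aged and young spermatids. All 7 had a lower mean log2 level in the aged group, with differences of -0.01 to -0.14 and a median of -0.12, where the median over all 12985 genes tested was -0.02. A lower mean was found for 54.5% of all genes tested, and for 62.9% of the 124 genes at 500 FPKM or more. By limma on log2(FPKM + 1) with Benjamini-Hochberg adjustment, 0 of the 7 genes passed, as did 0% of all genes; the smallest adjusted p over all genes was 0.280. At an unadjusted p under 0.05 stood 1 of the 7 genes, Crisp2, and 11.9% of all genes (1544), of which those lower in aged samples made up 6.35% of genes tested. Voom on the recovered fragments also called 0 genes, with 1632 at an unadjusted p under 0.05. The groups overlapped for each of the 7 genes, while they did not overlap for 2.6% of all genes.

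**Figure D2:**
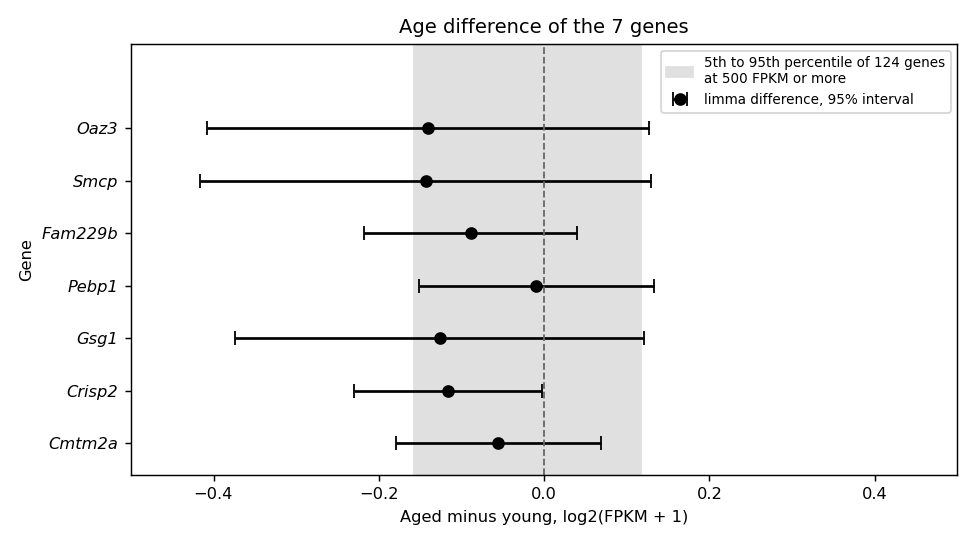
Aged minus young difference on the log2(FPKM + 1) scale for each gene, as the limma estimate with its 95% interval (5 libraries per group), beside the 5th to 95th percentile of the 124 genes at 500 FPKM or more (grey). The 7 points lie between -0.14 and -0.01 and within the grey band, and the intervals of 6 genes include 0.

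Oaz3 encodes antizyme 3, the haploid germ cell member of a family that restrains ornithine decarboxylase and polyamine uptake, and whose synthesis needs a ribosomal frameshift. The gene (ENSRNOG00000020863) lies on chromosome 2 from 195676048 to 195678848, minus strand, in the files' coordinates. It stood at 4984, 3426, 3784, 4056 and 5488 FPKM in young libraries 1 to 5 and at 4335, 3555, 3913, 4056 and 3613 FPKM in aged libraries 1 to 5. Young libraries 5 and 1 were the highest of all, young library 2 was the lowest, and the aged values lay inside the young range. The means were 4347 ± 860 FPKM (young) and 3894 ± 322 FPKM (aged) (SD, n = 5). The log2 difference was -0.14 (SE 0.12, 95% interval -0.41 to 0.13; limma adjusted p = 0.625), a 95% interval of -24.6% to 9.17% as a percent change. Without young library 5 it was -0.05, and without young library 2 it was -0.22.

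Smcp encodes a cysteine-rich protein of the sperm mitochondrial capsule, and its mRNA is a known case of delayed translation. The gene (ENSRNOG00000009326; chromosome 2, 192775437 to 192780631, minus strand) stood at 3275, 2440, 2513, 3077 and 3900 FPKM in young libraries 1 to 5. In aged libraries 1 to 5 it stood at 2942, 2574, 2865, 2894 and 2336 FPKM. Again young libraries 5 and 1 were the highest, and the lowest value was that of aged library 5. The means were 3041 ± 599 and 2722 ± 260 FPKM (SD, n = 5), a log2 difference of -0.14 (SE 0.12, 95% interval -0.42 to 0.13; limma adjusted p = 0.626). Without young library 5 the difference was -0.05, and without young library 2 it was -0.22.

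Gsg1 encodes a germ cell membrane protein known to bind the testis poly(A) polymerase. The gene (ENSRNOG00000008518; chromosome 4, 169020683 to 169036950, minus strand) stood at 2476, 1897, 2007, 2079 and 2931 FPKM in young libraries 1 to 5 and at 2195, 1829, 2096, 2226 and 1976 FPKM in aged libraries 1 to 5. The same 2 young libraries were highest, and 4 of the 5 aged values lay inside the young range. The means were 2278 ± 426 and 2064 ± 164 FPKM (SD, n = 5), a log2 difference of -0.13 (SE 0.11, 95% interval -0.37 to 0.12; limma adjusted p = 0.633). Without young library 5 it was -0.03.

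Crisp2 encodes a cysteine-rich secretory protein of the acrosome and sperm tail, with roles in motility and sperm-egg fusion. The gene (ENSRNOG00000013225; chromosome 9, 23503236 to 23527496, plus strand) stood at 2219, 2143, 2040, 2201 and 2441 FPKM in young libraries 1 to 5. In aged libraries 1 to 5 it stood at 1997, 2038, 2135, 1983 and 2022 FPKM. Of the aged values 4 of 5 lay below the lowest young value, and aged library 3 lay among the young ones. The means were 2209 ± 147 and 2035 ± 59.9 FPKM (SD, n = 5), a log2 difference of -0.12 (SE 0.05, 95% interval -0.23 to -0.0023), a change of -7.72%. Crisp2 did not pass over all genes (limma adjusted p = 0.418, unadjusted p = 0.0462), and across the other fits run its adjusted p ranged from 0.345 to 0.703. A two-sided exact permutation test of Crisp2 alone gave an unadjusted p of 0.0159, where 5 against 5 libraries can reach 0.00794; the other 6 genes gave 0.151 to 0.873. Without aged libraries 1 and 2, the highest in markers of other testis cells, the difference was -0.11 (limma adjusted p = 0.703, unadjusted p = 0.136). In that fit Oaz3, Smcp, Gsg1, Fam229b, Cmtm2a and Pebp1 differed by -0.15, -0.16, -0.10, -0.07, -0.0036 and 0.055.

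Pebp1 encodes the phosphatidylethanolamine binding protein, which is known to restrain the MEK and ERK kinase cascade. The gene (ENSRNOG00000001136; chromosome 12, 45026886 to 45031145, plus strand) stood at 2368, 2276, 2256, 2277 and 2570 FPKM in young libraries 1 to 5. In aged libraries 1 to 5 it stood at 2229, 2133, 2226, 2522 and 2582 FPKM. Young library 5 and aged libraries 4 and 5 were high, and the 3 lowest libraries were aged. The means were 2349 ± 131 and 2338 ± 200 FPKM (SD, n = 5), a log2 difference of -0.01 (SE 0.06, 95% interval -0.15 to 0.13; limma adjusted p = 0.957), a 95% interval of -9.97% to 9.65% as a percent change. The sign of this difference turned with the scaling: it was 0.00 after TPM scaling (0.00436 before rounding) and 0.08 after quantile scaling.

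Cmtm2a encodes a membrane protein of the CMTM family, named for its chemokine-like and MARVEL domains. The gene (ENSRNOG00000025420; chromosome 19, 880024 to 887144, plus strand) stood at 1832, 1968, 1883, 1909 and 1999 FPKM in young libraries 1 to 5 and at 1766, 1730, 1906, 1766 and 2078 FPKM in aged libraries 1 to 5. Of the aged values 3 were below every young one, and aged library 5 was the highest of all. The means were 1918 ± 66.5 and 1849 ± 145 FPKM (SD, n = 5), a log2 difference of -0.06 (SE 0.06, 95% interval -0.18 to 0.07; limma adjusted p = 0.678).

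Fam229b is a short gene of little known function. It (ENSRNOG00000024918; chromosome 20, 44207478 to 44220702, minus strand) stood at 2521, 2674, 2435, 2519 and 2814 FPKM in young libraries 1 to 5 and at 2458, 2321, 2424, 2291 and 2701 FPKM in aged libraries 1 to 5. The fifth library was the highest of either group, and 3 aged values were below every young one. The means were 2593 ± 151 and 2439 ± 162 FPKM (SD, n = 5), a log2 difference of -0.09 (SE 0.06, 95% interval -0.22 to 0.04; limma adjusted p = 0.530). Its span overlaps that of Lama4 on the opposite strand, which averaged only 1.34 FPKM.

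**Figure D3:**
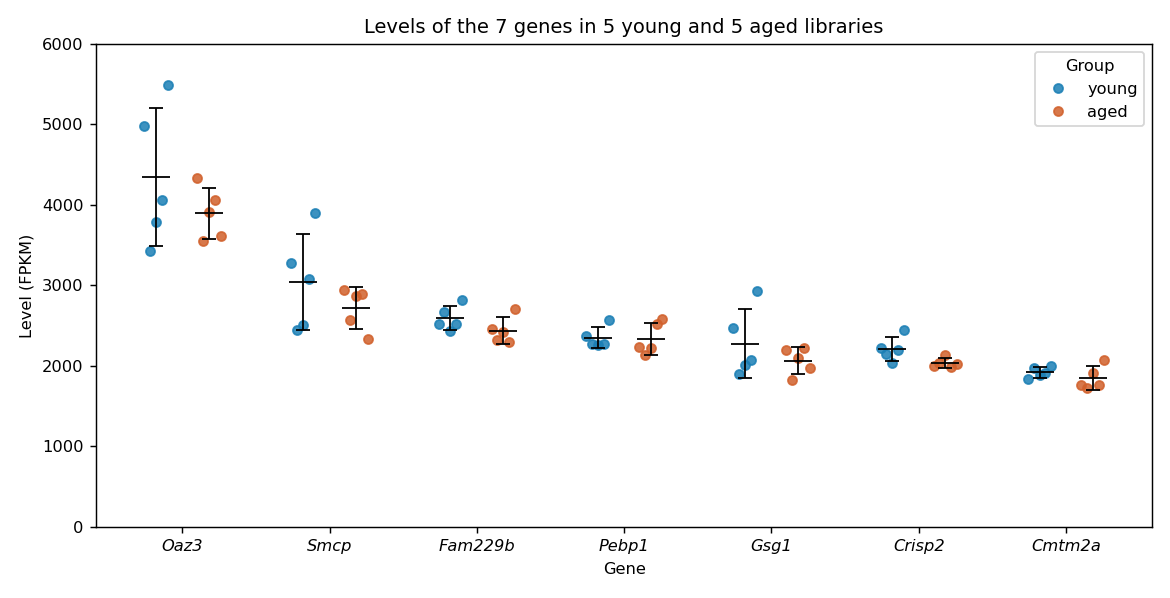
Level of each gene (FPKM) in every young (blue) and aged (orange) library, with the group mean and SD (n = 5) in black. The spread of Oaz3, Smcp and Gsg1 is widest in the young group, and the groups overlap for all 7 genes.

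The genes differed in how much they varied between libraries. Oaz3, Smcp and Gsg1 had coefficients of variation of 15.9%, 16.2% and 14.9% over the 10 libraries and a highest library 1.60, 1.67 and 1.60 times the lowest. Fam229b, Pebp1, Crisp2 and Cmtm2a had 6.70%, 6.81%, 6.59% and 5.95%, with ratios of 1.20 to 1.23. Among the 124 genes at 500 FPKM or more the median was 6.73% and the 90th percentile 15.2%, so the first 3 genes were among the most variable abundant transcripts and the other 4 were near the middle. Every value rested on at least 23903 fragments, for which counting error is at most 0.647%. The group with the larger SD was the young one for Oaz3, Smcp, Gsg1 and Crisp2 and the aged one for Fam229b, Pebp1 and Cmtm2a, which was not tested.

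Oaz3, Smcp and Gsg1 varied together. Over the 10 libraries the Pearson r of log2 levels was 0.92 to 0.97 among their 3 pairs (Spearman rho 0.83 to 0.93), and 0.72 to 0.90 over the 8 libraries left without young libraries 1 and 5, the 2 highest in each. Among the other 18 of the 21 pairs r ran from -0.06 to 0.85 over 10 libraries and from -0.51 to 0.88 over those 8, the highest being Fam229b with Cmtm2a in both. Over the 8 libraries that pair (0.88) was above Smcp with Gsg1 (0.72) and Oaz3 with Smcp (0.85). These values share the library scaling and both age groups and are a description. In young library 5 the log2 deviation from each gene's mean was 0.43 for Oaz3, 0.45 for Smcp and 0.45 for Gsg1, against 0.09 to 0.20 for the other 4 genes. In aged library 5 it was -0.17, -0.29 and -0.12 for the first 3 and 0.11, 0.14 and 0.14 for Fam229b, Pebp1 and Cmtm2a. Young library 5 also had the highest sum of FPKM over all genes, 580840 against 530392 to 552217 in the others. As a share of that sum the 7 genes were still highest there (3.81%), followed by young library 1 (3.61%), with 3.05% to 3.34% elsewhere. The part of this library total in the pattern was not tested.

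**Figure D4:**
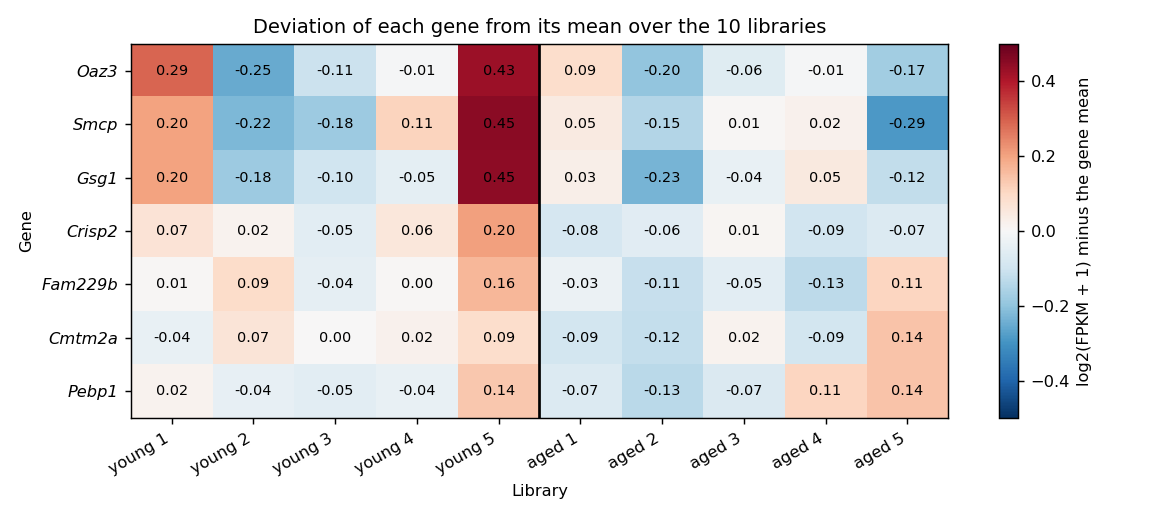
Deviation of each gene (rows) from its mean over the 10 libraries (columns), in log2(FPKM + 1), red above and blue below. Oaz3, Smcp and Gsg1 share their high values in young libraries 1 and 5 (0.20 to 0.45), while Fam229b, Cmtm2a and Pebp1 are above their means in aged library 5.

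The genes most alike in pattern were sought by Pearson r over the 10 libraries among 4942 named genes of at least 10 FPKM. As the highest of so many genes over so few libraries, the r values found are high by selection. The r that unrelated genes would reach in such a search was not determined. For Oaz3 these were Gapdhs, the sperm form of a glycolysis enzyme (r = 0.98), the chaperone Dnajb8 (0.98) and Prkar2a, a regulatory subunit of protein kinase A (0.98). For Smcp they were Odf1, the outer dense fibre protein (0.98), Spata6, needed for the sperm head-tail junction (0.98), and Fam161a (0.97). For Gsg1 they were again Gapdhs (0.99), then Spem1 (0.99) and Tmem53 (0.98). Prm1, a protamine gene that was also highest in young libraries 5 (16200 FPKM) and 1 (14554 FPKM), had an r of 0.96 with Oaz3, 0.97 with Smcp and 0.90 with Gsg1, 0.71 with Crisp2, 0.17 with Fam229b, 0.21 with Pebp1 and -0.17 with Cmtm2a.

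For the other 4 genes the search returned other transcripts, with the same limit, and their functions were not used in it. Pebp1 was most like the glycolysis enzyme Eno1 (0.98), Znrf4 (0.95) and Ubxn6 (0.94), and had an r of 0.92 with Ybx2. Fam229b was most like Bud31, a splicing protein (0.90), the proteasome subunit Psma6 (0.90) and Ndufa10 of respiratory complex I (0.87). Cmtm2a was most like 1700025F22Rik (0.92), Ngrn (0.91) and Phf7 (0.91). Crisp2 was most like Ttc39d (0.93), the translation initiation factor subunit Eif2s1 (0.90) and the autophagy kinase Ulk2 (0.90), values that were 0.80, 0.64 and 0.61 over the 8 libraries without young libraries 1 and 5. None of these genes passed between the ages by limma, with adjusted p values from 0.471 (Ndufa10) upwards.

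The polyamine genes around Oaz3 did not pass in either direction: of 11 others tested of 15 listed, 0 passed higher and 0 lower, with a median log2 difference of -0.05 against -0.02 over all genes. The family relatives of Oaz3 were far lower, with Oaz1, the general antizyme, at 129 FPKM and Oaz2 at 156 FPKM. The target enzyme gene Odc1 stood at 96.4 ± 3.52 FPKM (young) and 97.3 ± 3.99 FPKM (aged) (SD, n = 5). Azin2, an antizyme inhibitor of testis and brain that relieves the enzyme, averaged 243 ± 63.0 and 200 ± 29.2 FPKM, a log2 difference of -0.26 (SE 0.16; limma adjusted p = 0.513). Azin2 followed Oaz3 between libraries (r = 0.94 over 10), with its highest values in young libraries 5 (325 FPKM) and 1 (293 FPKM). Its relative Azin1 averaged 14.0 ± 0.665 and 12.6 ± 0.903 FPKM, with a log2 difference of -0.15 (SE 0.06; adjusted p = 0.391). Amd1, Paox, Satl1 and Slc3a2 differed by -0.04, -0.05, 0.08 and 0.14. Sat1, which starts polyamine breakdown, is a low gene here and stood at 4.42 and 7.49 FPKM in aged libraries 1 and 2 against 0.546 to 1.08 FPKM elsewhere. Those are the libraries with the highest sums of markers of other testis cells, whose part in this value was not tested.

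**Figure D5:**
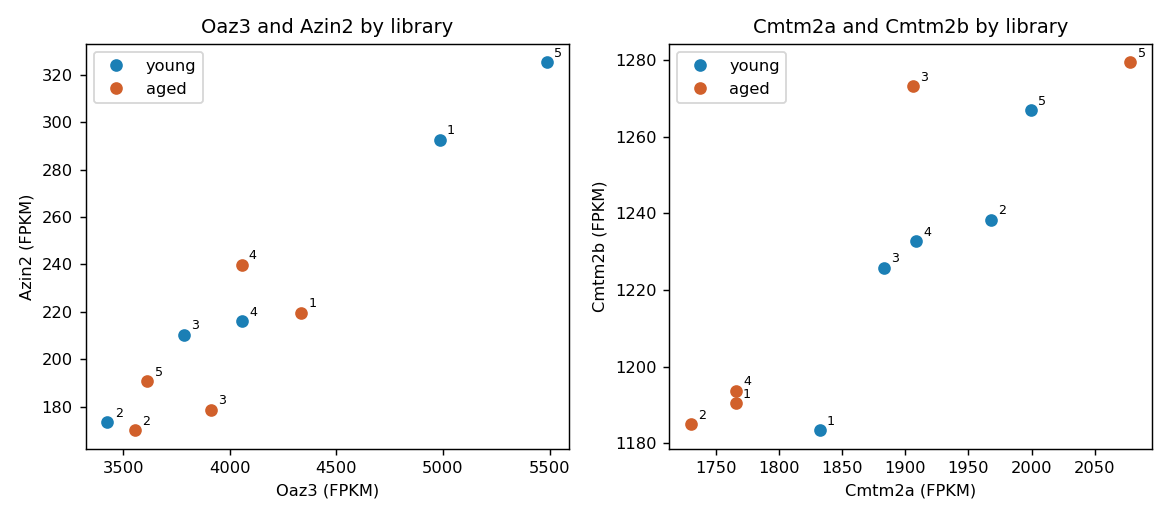
Levels (FPKM) of Oaz3 against Azin2 (left) and of Cmtm2a against Cmtm2b (right) in the 10 libraries, numbered by replicate, young in blue and aged in orange; neither axis starts at 0. Young libraries 1 and 5 are highest for Oaz3 and Azin2, and aged library 5 is highest for Cmtm2a and Cmtm2b.

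The setting of Smcp was examined with genes of the mitochondrial sheath and of spermatid mitochondria. Of 15 others tested of 17 listed, 0 passed in either direction, 7 were higher and 8 lower, and the median was 0.00 (-0.00155). The most abundant were the glycerol kinase Gk2 at 499.7 ± 17.4 FPKM (young) and 499.6 ± 31.1 FPKM (aged) (SD, n = 5), the porin Vdac3 at 461 ± 12.6 and 456 ± 13.8 FPKM and Spata19 at 422 ± 58.1 and 409 ± 43.2 FPKM. Armc12 (287 FPKM), Gykl1 (222 FPKM) and Tbc1d21 (192 FPKM) differed by 0.06, 0.07 and -0.02, and Vdac2 (390 FPKM) by -0.05. Gpx4, the peroxidase that hardens the capsule, averaged 33.7 FPKM. Slc25a31, Phb2, Opa1, Mfn1, Fis1 and Dnm1l, at 10.6 to 43.9 FPKM, differed by -0.21 to 0.10.

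Crisp2 stood alone in its family. Of 7 other CAP proteins tested of 14 listed, 0 passed in either direction, with a median log2 difference of -0.07. The next in level were Glipr1l1, a sperm surface protein, at 146 FPKM, Glipr2 at 33.3 FPKM and Pi16 at 12.3 FPKM, which differed by 0.05, -0.14 and -0.07. Crisp3 averaged 8.27 FPKM. Cmtm2a had a close neighbour instead: Cmtm2b, its paralog 19530 bp away on the opposite strand of chromosome 19, averaged 1230 ± 30.1 FPKM (young) and 1224 ± 47.6 FPKM (aged) (SD, n = 5), and followed it between libraries (r = 0.89 over 10). Where such paralogs share sequence, counting can split their fragments, so both levels are uncertain to that extent. Cmtm1, the third abundant member, stood at 53.2 FPKM and differed by 0.03. Of 6 other CMTM genes tested of 9 listed, 0 passed, with a median of -0.03.

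Pebp4, the relative of Pebp1, averaged 117 FPKM and differed by 0.06. Among the 10 genes of this cascade and the PEBP family tested beside Pebp1 of 13 listed, 0 passed in either direction, with a median of -0.02. Braf, a kinase of the cascade, had groups that did not overlap: it stood at 11.4 to 12.9 FPKM in young and 13.3 to 14.8 FPKM in aged libraries, a log2 difference of 0.15 (SE 0.05; limma adjusted p = 0.353). Map2k2, a MEK kinase, differed by 0.09 and Mapk3, an ERK kinase, by 0.04. Fam229a, the other FAM229 gene listed, averaged 279 ± 38.1 and 307 ± 31.8 FPKM, a log2 difference of 0.14 (SE 0.10; adjusted p = 0.548), opposite in sign to that of Fam229b. It was 0.08 without young library 1 and 0.08 without aged library 5.

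The genes of poly(A) addition around Gsg1 also did not pass: of 11 others tested of 16 listed, 0 passed in either direction, with a median of -0.01. Papolb, the gene of the testis poly(A) polymerase, was listed but is not among those tested. Of the 17 names in this list, Gsg1 included, 13 genes were matched to measured ones. An untested gene may thus be unmatched rather than below 1 FPKM, and nothing is said here of its level. Pabpc1 averaged 1612 ± 73.9 FPKM (young) and 1576 ± 98.9 FPKM (aged), Pabpc2 304 ± 8.23 and 307 ± 12.3 FPKM and Pabpn1 100 ± 6.66 and 107 ± 7.52 FPKM (SD, n = 5). The poly(A) polymerase genes Papola and Papd4 averaged 46.1 and 15.7 FPKM and differed by 0.04 and 0.00 (0.00463). Cpsf1, Cpsf2 and Cpsf3, of the cleavage complex, differed by -0.04, -0.13 and -0.01. The pattern of Gsg1 was not seen in the genes tested: the r with Gsg1 was -0.26 for Pabpc1, -0.60 for Pabpc2 and 0.31 for Papola over the 10 libraries.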

How the data were processed

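The authors deposited FPKM values, 1 file per sample with the same 32545 genes, per the file headers. HISAT2 2.0.5 and featureCounts 1.5.0-p3 are named in the submitters' processing notes; for settings, strand use and genome build, the sources used here give nothing. Whole fragments were recovered from the size of 1 fragment in each library (100% of values whole within 0.001). The library total behind the deposited FPKM was 0.966 to 1.03 times the recovered sum. Age was tested with limma 3.58.1 in R 4.3.3 (lmFit, eBayes with trend) on log2(FPKM + 1). Tests were two-sided over the 12985 genes averaging 1 FPKM or more, with Benjamini-Hochberg adjustment over all of them and a threshold of 0.05. Differences are aged minus young on that scale. The fit was checked on data made with known changes.

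The members and lists were chosen with earlier results of these data known. Named were the 7 genes, the list genes at 10 FPKM or more or with groups that do not overlap, the 3 genes most alike per member, the genes above 1500 FPKM and the 3 next below; those below 10 FPKM and further r values were chosen after their values were seen. List genes were matched by name or RefSeq synonym; some genes of the list around Pebp1 are not reported here. Promoters came from RefSeq (GRCr8), a build that may differ from that of the files. Alternatives were a pseudocount of 0.1, other filters, scalings and weights, voom, a permutation test, a replicate block and leaving out libraries.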

Additional observations from a re-analysis of the deposited data

How the results depend on the processing

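Over 23 alternatives per gene, Crisp2 and Cmtm2a had a lower aged mean in all 23, with log2 differences of -0.14 to -0.04 and -0.10 to 0.00 (-0.00362), and so did Oaz3 (-0.22 to -0.02), Smcp (-0.22 to -0.04) and Gsg1 (-0.19 to -0.03). The filters, a robust variant of the fit, the replicate block and the permutation test cannot change the difference itself. The fits that leave out a library share most of their data, so these alternatives are not independent checks. None of the 7 genes had an adjusted p under 0.05 in any of the fits that give one; the permutation test gives none. Fam229b was at 0 under quantile scaling. Pebp1 turned to 0.00436 (TPM scaling), 0.00413 (median-of-ratios scaling), 0.0774 (quantile scaling), 0.0209 (sample weights) and 0.0553 (without aged libraries 1 and 2, chosen after seeing the data), and ran from -0.0461 to 0.0235 when each library was left out. By the exact permutation test Crisp2 had its -0.12 with p = 0.0159. The 1 gene at an unadjusted p under 0.05 became 0 with median-of-ratios or quantile scaling, no filter on low values, sample weights, the replicate block or without aged libraries 1 and 2, and 0 to 1 when single libraries were left out. Of those single leave-outs, Crisp2 stayed under 0.05 only without aged library 3 (limma unadjusted p = 0.0368) or young library 3 (0.0205). Without aged library 5 the gene was Fam229b (0.0362), with Crisp2 at 0.0662. The median of the CAP family list moved to -0.0208 without aged libraries 1 and 2 and ran from -0.0906 to 0.0118 over the leave-outs. The share of the 7 genes was 1.74% of fragments and 3.30% of FPKM. The cause of these changes was not tested.

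With the replicate block the difference of Crisp2 was -0.12 (unadjusted p = 0.0770, adjusted p = 0.541). Same-numbered libraries did not deviate together over the genes tested (correlations of -0.158 to 0.054). No pairing by number was seen, but such correlations cannot exclude one. Over all genes, 1544 had an unadjusted p under 0.05, but 2379 without a filter, 887 at 5 FPKM or more and 972 without aged libraries 1 and 2; 53.4% of them were lower in aged samples, and 38.8% after TPM scaling. Without young library 1 or young library 2, 1 gene passed over all genes, which was none of the 7. Counting error was at most 0.647% for any of the 7 genes in any library, far below their spread between libraries.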

Other observations

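Among the 16 tested genes of the classes set aside, some shared the pattern of Oaz3, Smcp and Gsg1 and others did not. Over the 10 libraries the r with Oaz3 was 0.98 for Dnajb8 and for Hspa1l, a spermatid chaperone, and 0.97 for Odf2. It was 0.96 for Prm1 and Prm2, 0.95 for Tnp2, 0.92 for Odf1 and 0.88 for Hspa4l. It was -0.49 for Hspa2, a chaperone that starts in meiosis, -0.43 for Odf3, 0.06 for Hsp90aa1 and 0.20 for Odf4. Between these lay Dnajb3 (0.75), Tnp1 (0.72), Prm3 (0.70) and Dnajb7 (0.48). Hspb9, which is not among the 16, had an r of 0.13 with Oaz3 and 0.88 with Pebp1. Hspa2 averaged 1198 ± 37.6 FPKM (young) and 1216 ± 73.0 FPKM (aged), Hspa1l 344 ± 68.6 and 300 ± 22.5 FPKM and Odf3 180 ± 20.3 and 203 ± 16.9 FPKM (SD, n = 5). None of the 16 passed between the ages by limma (adjusted p of 0.419 for Hspa4l upwards). The genes given with their levels, and Hspb9, were singled out after their values were seen.

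Atp13a3, a polyamine transporter of low level, averaged 2.16 ± 0.564 FPKM (young) and 1.005 ± 0.304 FPKM (aged), and differed on the log2 scale by -0.65 (SE 0.15; limma adjusted p = 0.319). Its groups overlapped by a single pair of libraries, young library 3 at 1.30 FPKM lying below aged library 5 at 1.32 FPKM.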
